A study of Mus musculus with 24 samples.

Results

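The 10 genes described here build and use the NEDD8 modification: the modifier Nedd8, the activating enzyme subunits Nae1 and Uba3, the conjugating enzymes Ube2m and Ube2f, the scaffolds Cul1, Cul2, Cul3 and Cul5, and the RING subunit Rbx1. They were taken by name from the 52636 genes counted by RNA-seq in 24 nucleus accumbens (NAc) samples, the part of the ventral striatum best known for its role in reward, from C57BL/6 mice aged 50 days. There were 6 control (Con) females, 6 females raised under unpredictable maternal stress with daily maternal separation (MSUS), 6 Con males and 6 MSUS males, with 1 library for each mouse. MSUS litters were parted from the dam on postnatal days 1 to 14, for 2 h a day by the sample labels and longer by the study's methods, while the dams were stressed at a random time, and Con litters were left undisturbed. No mouse of these groups had been given cocaine, and no genetic modification is stated in the labels.

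The methods state that high and low estrogenic stages were equally represented among the females of each group, but the labels attach stages to males as well, so the stage was not used. The NAc was taken from both hemispheres with a tissue punch, so each library mixes all cells of the punch. In such bulk tissue, fewer cells of a type and less RNA per cell cannot be told apart. All 10 listed markers of striatal projection neurons, the main neurons of the NAc, were detected in every group, as were all 10 markers of cortical excitatory neurons. Between 39923666 and 70575745 read pairs per library were counted on the sense strand of genes.

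NEDD8 is a small protein related to ubiquitin. The Nae1-Uba3 heterodimer activates it, Ube2m or Ube2f receives it, and it is then joined to a lysine of a cullin. This modification switches on cullin-RING ligases, large complexes in which a cullin holds an adaptor and a substrate receptor at 1 end and a RING protein at the other, and which mark proteins for degradation by attaching ubiquitin. Ube2m works mainly with Rbx1 and Ube2f with its relative Rnf7, the partner of Cul5. In neurons, cullin-RING ligases act in axon growth, spine formation and synaptic turnover.

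All 10 genes were well measured. Raw counts per library lay between 1334, for Nedd8, and 9409, for Cul3, and all 10 genes passed the filter on low counts in every comparison. Between 0.168% (Nae1) and 1.26% (Ube2m) of the pairs at each gene lay on the opposite strand. Nedd8 shares 184 exonic bases with Gmpr2, Cul1 192 with the pseudogene A930035D04Rik and Cul5 110 with the antisense gene Gm16124, each on the opposite strand, so that the stranded counts keep them apart. Rbx1 has a processed copy, Rbx1-ps, and pairs that fit both would have been left out of the count.

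Per kilobase of exon, Ube2m stood at the top and Ube2f at the bottom. Ube2m had 1966 ± 181 normalized counts per kb of merged exons (SD over the 24 libraries), followed by Nedd8 with 1575 ± 130, Cul3 with 1505 ± 118 and Cul1 with 1382 ± 46.9. Normalized counts are counts divided by a size factor for each library. Rbx1 (749.9 ± 39.1), Cul2 (698 ± 39.3) and Cul5 (633 ± 31.4) formed a middle set, below which lay Uba3 (464 ± 31.8), Nae1 (252 ± 18.1) and Ube2f (242 ± 11.3). Nedd8 exceeded Cul3 in 15 of 24 libraries and Nae1 exceeded Ube2f in 17 of 24, so neither of these neighbours was cleanly ordered. The ranges of the other neighbours either did not overlap, between Cul1 and Rbx1, Cul5 and Uba3, and Uba3 and Nae1, or overlapped with the same order in at least 22 of 24 libraries. Merged exons include rarely used ones, and with the length of the principal transcript instead, Ube2m, Nedd8 and Cul1 kept their ranks while Rbx1 moved from rank 5 to rank 3 and Cul2 from 6 to 9.

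Ube2m lies on chromosome 7 (13035120 to 13038275, minus strand, GRCm38), Nedd8 on chromosome 14 (55662263 to 55672124, minus strand), Rbx1 on chromosome 15 (81466296 to 81476369, plus strand) and Nae1 on chromosome 8 (104511028 to 104534637, minus strand). These are the members whose RNA differed between MSUS and Con females, and their promoter windows are shown for that reason. Each window runs 5′ to 3′ on the gene's strand from 250 bases before to 50 bases after the RefSeq start site (GRCm38.p6), at chr14:55671831-55672130 for Nedd8, chr7:13038226-13038525 for Ube2m, chr15:81466066-81466365 for Rbx1 and chr8:104534588-104534887 for Nae1, with matches to the 5 motifs searched in capitals.
Nedd8: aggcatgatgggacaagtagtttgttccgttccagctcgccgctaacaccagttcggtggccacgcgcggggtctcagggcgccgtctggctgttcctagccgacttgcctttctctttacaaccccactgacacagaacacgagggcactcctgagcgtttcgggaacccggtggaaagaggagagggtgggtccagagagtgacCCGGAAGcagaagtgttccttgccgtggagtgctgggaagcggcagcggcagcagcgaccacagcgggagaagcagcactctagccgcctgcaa
Ube2m: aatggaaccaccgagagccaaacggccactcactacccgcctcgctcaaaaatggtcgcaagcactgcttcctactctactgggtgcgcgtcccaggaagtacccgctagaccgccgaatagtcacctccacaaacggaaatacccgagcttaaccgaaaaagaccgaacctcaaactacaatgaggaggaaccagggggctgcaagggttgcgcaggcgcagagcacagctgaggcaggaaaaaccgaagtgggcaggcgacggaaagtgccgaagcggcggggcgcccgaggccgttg
Rbx1: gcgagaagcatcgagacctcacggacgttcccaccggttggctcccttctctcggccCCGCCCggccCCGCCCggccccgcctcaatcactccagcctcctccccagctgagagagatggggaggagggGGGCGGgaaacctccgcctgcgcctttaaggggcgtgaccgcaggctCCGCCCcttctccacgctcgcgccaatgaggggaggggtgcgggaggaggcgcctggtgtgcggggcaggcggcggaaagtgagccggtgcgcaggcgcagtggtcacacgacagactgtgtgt
Nae1: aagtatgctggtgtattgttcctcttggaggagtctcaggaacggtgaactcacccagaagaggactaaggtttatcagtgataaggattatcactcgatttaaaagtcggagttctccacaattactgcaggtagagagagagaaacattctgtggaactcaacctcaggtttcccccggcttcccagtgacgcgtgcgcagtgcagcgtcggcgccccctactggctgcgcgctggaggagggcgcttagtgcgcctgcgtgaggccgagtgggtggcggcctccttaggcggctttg
The motifs were the GC box GGGCGG, the ETS core CCGGAAG, the estrogen response element half-site AGGTCA, the E-box CACGTG and the cyclic AMP response element core TGACGT, searched on both strands, and none contains another. Nedd8 held 1 ETS core, beginning at position -44 from the start site, a motif that was present in 9.14% of 27025 promoter windows of the same length. The span of Nedd8 given above covers nearly all of its window, so this core lies inside the annotated gene. Rbx1 held 4 GC boxes, a motif of 35.9% of windows. Ube2m and Nae1 held no match to any of the 5. No window of these 4 genes held the half-site AGGTCA, which 4319 of the 27025 windows did; among the other members read it stood once, in Ube2f. A match or its lack says only whether these letters are in the window.

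In females, 4 of the 10 genes passed the test between MSUS and Con animals. Nedd8, Ube2m and Rbx1 were lower and Nae1 was higher in MSUS, while Uba3, Ube2f and the 4 cullins did not pass the test. The threshold was a Benjamini-Hochberg adjusted p under 0.10 in edgeR's quasi-likelihood test over 20571 genes. Of all genes tested, 25.1% passed, 13.1% as higher and 11.9% as lower, which is the background for 4 of 10. Nedd8 and Ube2m are also among the genes that the study displayed for an estrogen receptor network from these same libraries, so their direction here is not independent evidence.

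**Figure D1:**
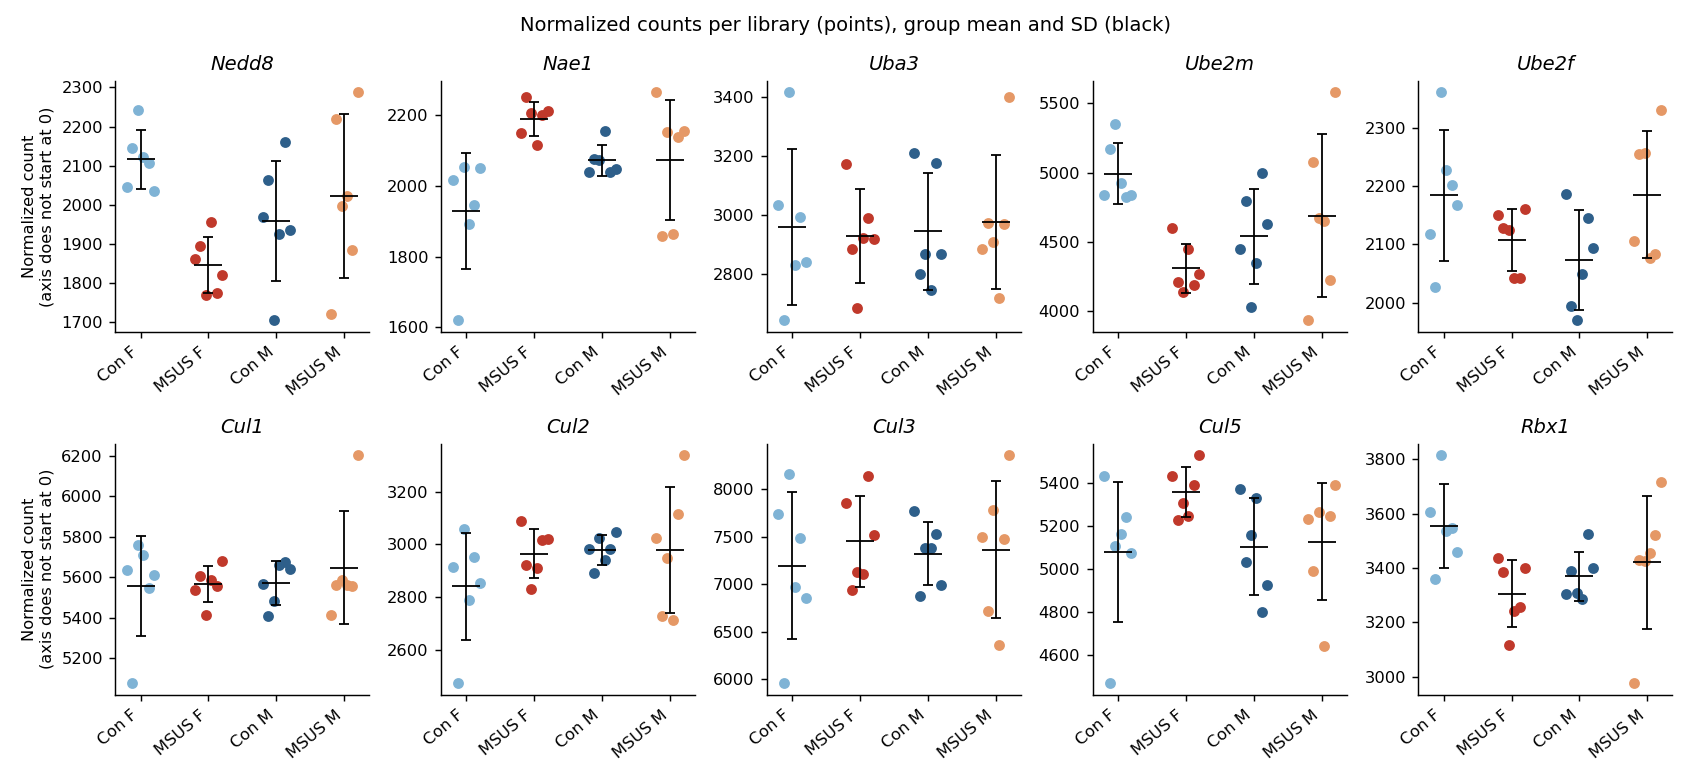
Normalized counts (y axes, not starting at 0) of the 10 genes in each of the 24 libraries, by group (F, female; M, male), with the group mean and SD in black. In Nedd8 and Ube2m every MSUS female library lies below every Con female library, and in Nae1 every one lies above, whereas the male groups overlap in all 10 panels.

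Nedd8, the modifier itself, ran from 2035 to 2243 normalized counts among the 6 Con females (median 2113). Among the 6 MSUS females it ran from 1770 to 1956 (median 1841), below all Con values. The means were 2116 ± 75.7 and 1847 ± 72.2 (SD, n = 6 each), and the log2 fold change was -0.19 (SE 0.035, adjusted p = 0.00574 by edgeR's quasi-likelihood test), so that Nedd8 fell by 12.5%.

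Ube2m, the enzyme that passes NEDD8 to most cullins, moved by a like amount. Con females ran from 4824 to 5351 normalized counts (median 4881) and MSUS females from 4141 to 4598 (median 4241), again with no overlap. Its log2 fold change was -0.21 (SE 0.038, adjusted p = 0.00582 by edgeR's quasi-likelihood test). Over all 24 libraries the levels of Nedd8 and Ube2m, as log2 CPM, had a Pearson r of 0.956, the highest of the 45 pairs of members. Genes outside the members reached higher values with each, such as Actr1a with Nedd8 (0.959) and Rnf157 with Ube2m (0.978).

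Rbx1, the RING subunit to which Ube2m docks, showed the smallest of the 4 differences. Con females ran from 3358 to 3815 (median 3542) and MSUS females from 3118 to 3437 (median 3321), so the groups overlapped, with all 6 MSUS libraries below the Con median. The log2 fold change was -0.10 (SE 0.035, adjusted p = 0.0700). The call was near the threshold, and it was lost in 6 of the 12 fits that left out 1 library, with adjusted p between 0.113 and 0.185 by edgeR's quasi-likelihood test in those fits.

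Nae1, the regulatory subunit of the activating enzyme, moved the other way. Con females ran from 1619 to 2053 normalized counts (median 1981) and MSUS females from 2115 to 2252 (median 2204), without overlap. The log2 fold change was 0.19 (SE 0.051, adjusted p = 0.0287 by edgeR's quasi-likelihood test), or 13.8% higher. Con female 2, with 1619, was far below the next Con female at 1893; without that library the log2 fold change of Nae1 was 0.14, and it passed in each of the 12 fits that left out 1 library. The female groups did not overlap in these 3 members, Nedd8, Ube2m and Nae1, against 7.21% of all genes tested (3.81% higher in every MSUS female and 3.41% lower).

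Uba3, the catalytic partner of Nae1, had 2927 ± 159 normalized counts in MSUS and 2959 ± 265 in Con females, with a log2 fold change of -0.01 and a 95% interval of -0.14 to 0.11. The 2 subunits of the same heterodimer thus had unlike values, although the difference between them was not tested. Ube2f, the second conjugating enzyme, had 2108 ± 53.1 and 2184 ± 112, with a log2 fold change of -0.05 (95% interval -0.13 to 0.03, adjusted p = 0.374 by edgeR's quasi-likelihood test). All 6 MSUS libraries lay below the Con median of Ube2f, but they lay within the Con range.

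The cullins, the proteins that carry NEDD8, showed no difference past the threshold in females. Cul1, the scaffold of the SCF ligases, had a log2 fold change of 0.01 (95% interval -0.07 to 0.08), and Cul2, which holds the von Hippel-Lindau protein, one of 0.07 (-0.03 to 0.17). Cul3, which binds BTB proteins, had 0.05 (-0.10 to 0.21), and Cul5, which binds SOCS box proteins, had 0.08 (-0.01 to 0.17, adjusted p = 0.190 by edgeR's quasi-likelihood test). These intervals leave room for a change of the size seen in Nae1 in Cul3 but not in Cul1, Cul2 or Cul5. Cul3 was also the cullin that varied most among Con females, from 5958 to 8159 normalized counts (SD 777), against 5076 to 5757 for Cul1 (SD 246).

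**Figure D2:**
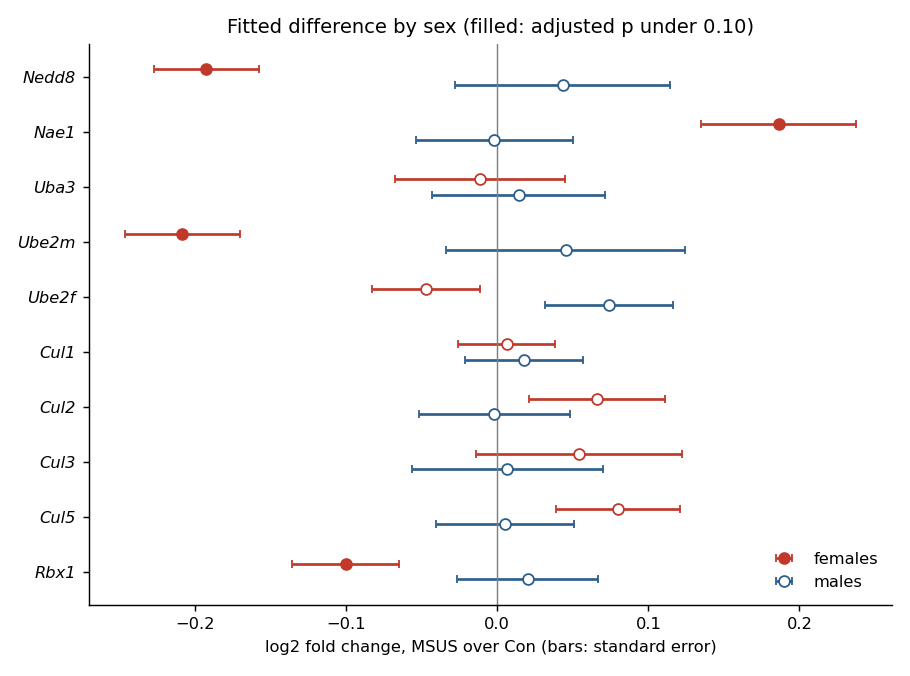
Log2 fold change of MSUS over Con (x axis) for the 10 genes (y axis) in females (red) and males (blue), with bars of 1 standard error and filled points for an adjusted p under 0.10. Nedd8, Ube2m, Rbx1 and Nae1 are filled in females, and no point is filled in males.

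The female groups also differed in a property of the libraries. Of the pairs mapped to 1 place, STAR assigned between 31.0% and 34.8% to no gene in Con females and between 36.3% and 43.9% in MSUS females, with no overlap (difference 7.25 percentage points, p = 0.00216 in an exact permutation test, the smallest that 6 against 6 can give). In males the shares were 34.7% to 40.6% in Con and 32.2% to 44.7% in MSUS. Here no gene means no gene on the sense strand, so the share includes pairs on the opposite strand of a gene. With this share as a covariate, the standard errors of Nedd8 and Ube2m doubled to 0.073 and 0.081, their log2 fold changes were -0.15 and -0.19, and none of the 10 genes passed, nor did any of the 20571 genes tested (1174 had an unadjusted p under 0.05). Because the share separates the female groups completely, the share and MSUS cannot be told apart in females. With the share of splice events per mapped pair as a covariate, Nedd8 had a log2 fold change of -0.12, Ube2m -0.17, Rbx1 -0.11 and Nae1 0.04, and none passed.

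In males, where the groups overlap in this share, the levels could be set against it directly. A slope on the share was fitted for every gene over the 12 male libraries, with the group kept in the model. Nedd8, Ube2m and Rbx1 fell with the share past the threshold and no member rose, 3 of 10 against 31.5% of the 20691 genes tested (16.9% falling and 14.7% rising). The count for the members is therefore near that of all genes, and a large part of the transcriptome ran with the share in males. Over all genes, the 6527 calls were 3898 without MSUS male 1 and 4003 without MSUS male 6. Both measures of a library come from the same reads.

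Ube2m had a log2 slope of -0.038 per percentage point (SE 0.0060, adjusted p = 0.00166 by edgeR's quasi-likelihood test over all genes), Nedd8 one of -0.033 (SE 0.0061, adjusted p = 0.00378) and Rbx1 one of -0.018 (SE 0.0048, adjusted p = 0.0171). Without MSUS male 1, Rbx1 had -0.0095 (adjusted p = 0.375) and 2 members were left, while Nedd8 and Ube2m passed in each of the 12 fits that left out 1 library. With GC and length offsets, 8 of the 10 fell past the threshold, the 4 cullins and Uba3 among them, against 24.1% of all genes past it, 14.0% falling. Correlations were computed for the 10 members, each as Pearson's r and Spearman's rho over the 12 libraries with 100000 resamples. Ube2m gave r = -0.924 (permutation p = 6e-05) and rho = -0.923 (permutation p = 3e-05), Nedd8 r = -0.883 (permutation p = 0.00011) and rho = -0.895 (permutation p = 0.00014), and Rbx1 r = -0.850 (permutation p = 0.00038) and rho = -0.713 (permutation p = 0.0119). Without the 2 libraries farthest from the median share, r was -0.853 for Ube2m, -0.787 for Nedd8 and -0.584 for Rbx1. Within the 6 male libraries numbered 1 to 12 and the 6 numbered 13 to 24, r was -0.868 and -0.923 for Ube2m, -0.797 and -0.906 for Nedd8, and -0.863 and -0.887 for Rbx1.

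Nae1 had a log2 slope of 0.014 per percentage point that missed the threshold (adjusted p = 0.145 by edgeR's quasi-likelihood test), with r = 0.613 (permutation p = 0.0341), rho = 0.503 (permutation p = 0.0984), r = 0.698 without the 2 farthest libraries and 0.669 and 0.446 within the sets of library numbers. It passed without MSUS male 6 (0.022, adjusted p = 0.0389), and with GC and length offsets its slope was -0.013 (adjusted p = 0.103). Cul1 gave r = -0.654 (permutation p = 0.0242) and rho = -0.594 (permutation p = 0.0451), but r was -0.0942 without the 2 farthest libraries, so that relation rests on them; within the sets it was -0.914 and -0.460. The other 5 members had absolute r of at most 0.452 over the 12 libraries, but these values moved with the libraries included. Without the 2 farthest libraries, r was 0.795 for Cul5, 0.720 for Cul2 and 0.668 for Cul3, and within the libraries numbered 13 to 24 it was -0.813 for Ube2f and -0.745 for Uba3.

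**Figure D3:**
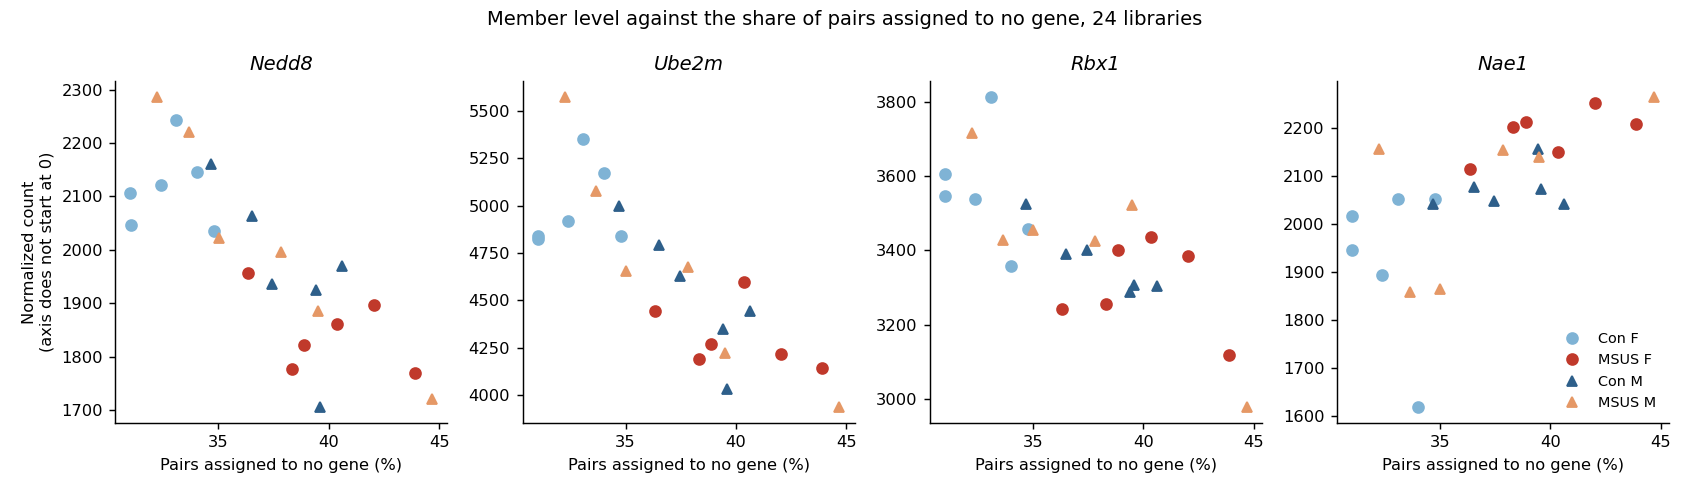
Normalized counts (y axes, not starting at 0) of Nedd8, Ube2m, Rbx1 and Nae1 against the percent of pairs assigned to no gene (x axes) in the 24 libraries, with circles for females and triangles for males. Nedd8, Ube2m and Rbx1 are lower at higher shares in the male libraries as well as across the female groups; Nae1 is higher across the female groups, and its slope of 0.014 in males missed the threshold.

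Some cell type markers had lower sums in MSUS than in Con females. The summed normalized counts of the 10 cortical excitatory neuron markers, all detected, ranged from 33260 to 109200 in Con females and from 22590 to 53790 in MSUS females (p = 0.0346 in an exact permutation test, adjusted p = 0.168 over 32 such tests). Those of the 7 oligodendrocyte markers ranged from 213600 to 322800 and from 194900 to 238500 (exact permutation p = 0.0130, adjusted p = 0.0831), and those of the 6 astrocyte markers from 60490 to 64470 and from 56260 to 61600 (exact permutation p = 0.0130, adjusted p = 0.0831). Those of the 5 endothelial markers ranged from 8862 to 9655 and from 8648 to 9186 (exact permutation p = 0.0368, adjusted p = 0.168). The sums of striatal projection neuron, oligodendrocyte precursor and microglia markers gave exact permutation p of 0.864, 0.734 and 0.431. No listed marker of any type was at 0. The part of oligodendrocytes, astrocytes and endothelial cells in the differences of the members was not tested. With the cortical marker score as a covariate, Nedd8 (log2 fold change -0.16, adjusted p = 0.0696 by edgeR's quasi-likelihood test) and Ube2m (-0.15, adjusted p = 0.0751) passed, against 7.15% of all genes, and Nae1 (0.17, adjusted p = 0.155) and Rbx1 (-0.05, adjusted p = 0.512) did not.

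Base composition differed among the members' transcripts. The longest transcripts of Ube2m and Nedd8 had the highest GC content of the 10, at 63.4% and 54.7%, and those of Cul3, Nae1 and Cul5 the lowest, at 38.5%, 39.0% and 39.0%. Rbx1, lower in MSUS females, had 42.5%, below Cul1 at 44.1% and Ube2f at 47.7%, which did not pass. A relation between the calls and GC content over the 10 genes was not tested. With offsets that remove each library's trend over GC content and length, Nedd8 kept its call (log2 fold change -0.17, adjusted p = 0.0232 by edgeR's quasi-likelihood test) and Rbx1 gained in size (-0.17, adjusted p = 0.00899). Ube2m lost its call (-0.09, adjusted p = 0.187), as did Nae1 (0.02, adjusted p = 0.793). The signs of Cul1, Cul2, Cul3 and Cul5 turned to negative, at -0.04, -0.05, -0.14 and -0.09, and Cul3 passed (adjusted p = 0.0922). Of all genes, 16.3% passed with the offsets. Nedd8 and Rbx1 were the members lower and past the threshold both with and without the offsets.

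**Figure D4:**
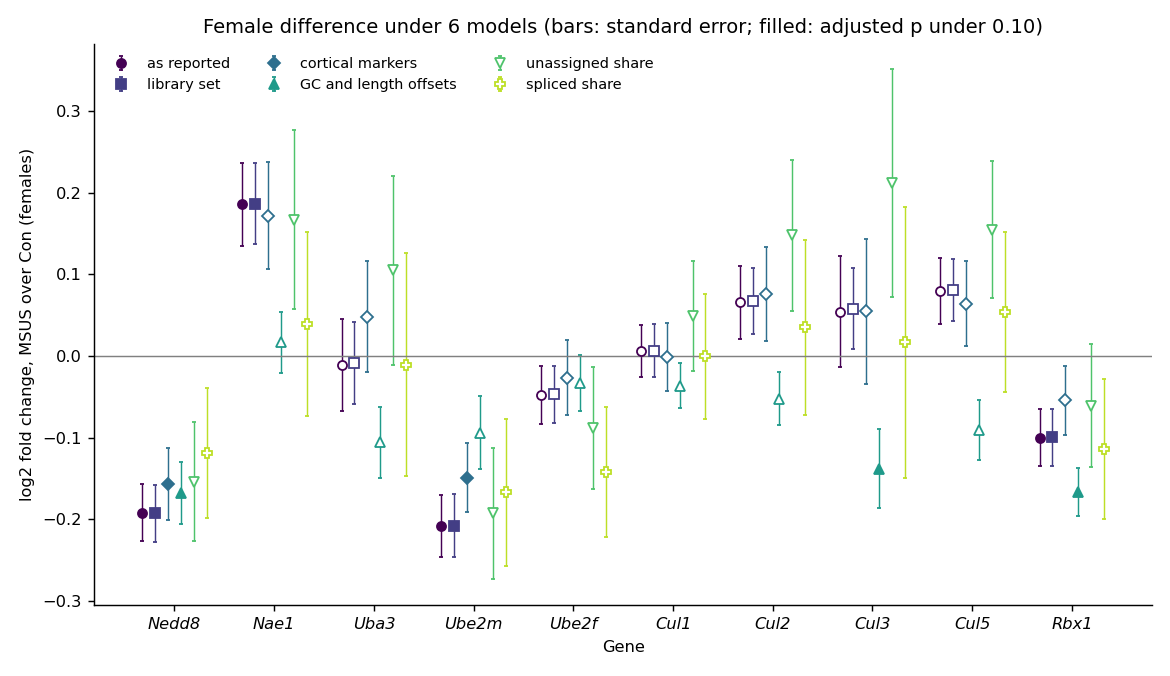
Log2 fold change of MSUS over Con in females (y axis) for each gene (x axis) under 6 models, the one reported and 5 with a covariate or offsets, with bars of 1 standard error and filled symbols for an adjusted p under 0.10. Nedd8, Ube2m and Rbx1 stay below 0 in all 6 models, Nae1 stays above 0 but shrinks to 0.02 with GC and length offsets, and the cullins fall below 0 under those offsets.

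In males, none of the 10 genes passed the test between MSUS and Con animals, and 0.0% of the 20691 genes tested passed (191 had an unadjusted p under 0.05, with none of the members among them; DESeq2 gave 0 genes and 304). For Nedd8, Con males ran from 1705 to 2161 normalized counts (median 1952) and MSUS males from 1721 to 2287 (median 2009), and the groups overlapped. Its log2 fold change was 0.04 (95% interval -0.12 to 0.20). For Ube2m, Con males ran from 4029 to 5000.0 (median 4537) and MSUS males from 3935 to 5577 (median 4665), with a log2 fold change of 0.05 (95% interval -0.13 to 0.22).

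Both genes spread more widely in males than in females: the SD of Ube2m was 588 in MSUS males and 343 in Con males, against 176 and 219 in MSUS and Con females, a difference that was not tested. MSUS male 1 held the lowest Ube2m and Rbx1 levels of the 24 libraries and the highest unassigned share, and MSUS male 6 held the highest Nedd8 and Ube2m levels. Nae1 had 2073 ± 44.1 normalized counts in Con and 2073 ± 170.0 in MSUS males, and Rbx1 3369 ± 89.2 and 3421 ± 243. The largest of the 10 log2 fold changes was that of Ube2f, at 0.07 (95% interval -0.02 to 0.17), with all 6 MSUS males above the Con median. The 4 cullins had values between -0.00 and 0.02.

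Between the sexes in Con animals, none of the 10 genes passed, against 2.64% of 20641 genes tested (3 of the 10 had an unadjusted p under 0.05 by edgeR and 2 by DESeq2, which called none of them). The mean of Ube2m was 4991 ± 219 normalized counts in females and 4541 ± 343 in males (log2 fold change of females over males 0.14, 95% interval 0.03 to 0.26, adjusted p = 0.175 by edgeR's quasi-likelihood test). Nedd8 had a log2 fold change of 0.12 (adjusted p = 0.260), Rbx1 one of 0.08 (adjusted p = 0.242) and Nae1 one of -0.10 (adjusted p = 0.360), so these 4 members had the opposite sign to that of the female MSUS comparison. Both comparisons share the Con females. The unassigned share was also lower in Con females than in Con males, with means of 32.7% and 38.05% (exact permutation p = 0.00433, adjusted p = 0.0462 over 32 tests). With it as a covariate the log2 fold change of Nedd8 was -0.01 and that of Rbx1 -0.01, while Ube2m and Nae1 kept their signs. The share ran from 31.0% to 34.8% in Con females and from 34.7% to 40.6% in Con males. It and sex can therefore hardly be told apart here. Without this covariate, the other 6 members had log2 fold changes between -0.06 and 0.08.

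Between the sexes in MSUS animals, again none of the 10 passed, against 0.135% of 20714 genes tested (1 of the 10 had an unadjusted p under 0.05 by edgeR and 0 by DESeq2). Nedd8 had 1847 ± 72.2 normalized counts in females against 2022 ± 209 in males, with a log2 fold change of -0.13 (95% interval -0.27 to 0.00, adjusted p = 0.667 by edgeR's quasi-likelihood test). Ube2m had -0.13, Rbx1 -0.05 and Nae1 0.08. All 6 MSUS females lay below the median of the MSUS males in Nedd8, Ube2m, Ube2f and Rbx1. They did so too in other pathway genes, Cops5, Cops6 and Ddb1 among them, and the share of all genes was not counted. The summed oligodendrocyte markers were also lower in these females, from 194900 to 238500 against 244300 to 294300 in MSUS males, without overlap (exact permutation p = 0.00216, adjusted p = 0.0346 over 32 tests), and their part in the members' values was not tested.

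Whether the MSUS difference itself was unequal in the sexes was tested as the interaction over all 24 libraries, taken as the log2 fold change in females less that in males. None of the 10 passed and neither did any of the 21500 genes tested (0.0%), although 4031 genes, 5 members among them, had an unadjusted p under 0.05; DESeq2 called 390 genes and none of the 10. The interaction was -0.26 for Ube2m (SE 0.090, adjusted p = 0.203 by edgeR's quasi-likelihood test), -0.24 for Nedd8 (SE 0.081, adjusted p = 0.200), 0.18 for Nae1 (adjusted p = 0.225), -0.13 for Ube2f (adjusted p = 0.237) and -0.13 for Rbx1 (adjusted p = 0.253). The cullins and Uba3 lay between -0.03 and 0.07. This result rested on 1 library. Without MSUS male 1, Nedd8 (-0.28, adjusted p = 0.0339 by edgeR's quasi-likelihood test), Ube2m (-0.30, adjusted p = 0.0386), Rbx1 (-0.16, adjusted p = 0.0539) and Nae1 (0.22, adjusted p = 0.0681) passed, 4 of 10 against 14.0% of the 21617 genes tested in that fit, 3031 genes in place of 0. Without any other single library no member passed. With all libraries included, the difference between the sexes passed the test for none of the 10 genes.

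The rest of the pathway was read from 7 lists with 71 genes, of which 70 were tested in females. There, 4 genes rose and 13 fell, 24.3% of those tested. Of all genes 25.1% passed, 13.1% as higher and 11.9% as lower. The median log2 fold change of the 70 was -0.03, against -0.00 over all genes. The 4 other cullins, Cul4a, Cul4b, Cul7 and Cul9, gave no call. Among 9 other genes of NEDD8 ligation and removal, 2 rose, Dcun1d5, a co-factor of NEDD8 ligation (0.16, adjusted p = 0.0303 by edgeR's quasi-likelihood test), and Senp8, a NEDD8-specific protease (0.15, adjusted p = 0.0948), and none fell.

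Of the 10 genes of the COP9 signalosome, which removes NEDD8 from cullins, 3 fell and none rose, against 11.9% of all genes as lower. The 3 were Cops7a (log2 fold change -0.17, adjusted p = 0.0103 by edgeR's quasi-likelihood test), Cops9 (-0.16, adjusted p = 0.0168) and Cops6 (-0.15, adjusted p = 0.00987). Cops5, the catalytic subunit, was not among them. Of 3 genes of cullin exchange and inhibition, Glmn, which binds the RING of Rbx1, rose (0.22, adjusted p = 0.0518).

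Of 5 cullin adaptors, 2 fell and none rose, against 11.9% of all genes as lower. The 2 were Elob, elongin B (-0.15, adjusted p = 0.0154), and Ddb1, the adaptor of the Cul4 ligases (-0.13, adjusted p = 0.0150), both by edgeR's quasi-likelihood test. All 5 values were below 0, as were 10410 of the 20571 genes tested. Of 30 substrate receptors tested, 7 fell and 1 rose. Among those past the threshold, the largest falls were those of Kctd17 (-0.28, adjusted p = 0.00899) and Kctd13 (-0.17, adjusted p = 0.0173), BTB proteins that pair with Cul3, and of the F-box protein Fbxo31 (-0.15, adjusted p = 0.0131). Skp2, also an F-box protein, rose (0.17, adjusted p = 0.0947). Of 9 ubiquitin enzymes that work with cullins, Cdc34, the conjugating enzyme of SCF ligases, fell (-0.22, adjusted p = 0.00998).

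**Figure D5:**
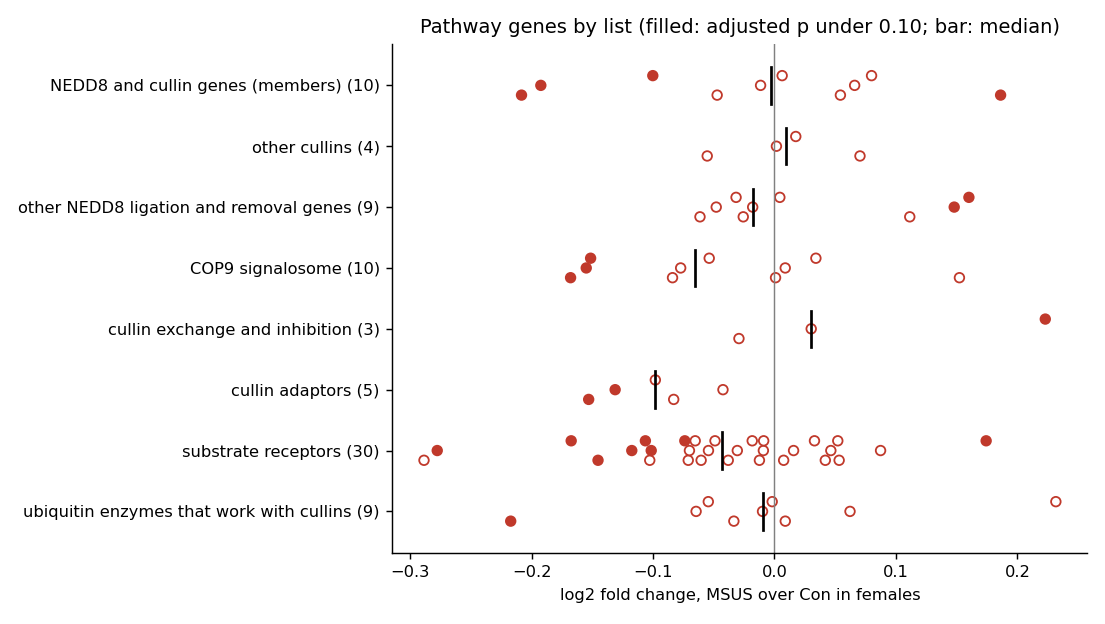
Log2 fold change of MSUS over Con in females (x axis) for the members and the 7 other lists (y axis, number of genes tested in parentheses), with filled points for an adjusted p under 0.10 and a black bar at each list's median. Filled points lie on both sides of 0, with 3 of 4 members and 13 of 17 other genes to the left. Among all genes tested, 2458 of the 5156 past the threshold were lower.

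In males none of the 70 pathway genes tested passed and none had an unadjusted p under 0.05 (DESeq2 gave 0 for both). Between the sexes in Con animals, 2 of 70 passed, near the 2.64% of all genes, both higher in females: Elob (3568 normalized counts in females against 3250 in males, log2 fold change 0.14, adjusted p = 0.0892 by edgeR's quasi-likelihood test) and Cdc34 (1443 against 1257, log2 fold change 0.20, adjusted p = 0.0776). Neither passed in 9 of the 12 fits that left out 1 library. In MSUS animals none passed between the sexes and in the interaction none did, with 0 and 11 genes at an unadjusted p under 0.05 (0 and 13 by DESeq2). Without MSUS male 1, 8 of the pathway genes passed in the interaction, no larger a share of the 70 than the 14.0% of all genes in that fit.

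The genes whose levels ran most like those of the members were found among 14313 genes with a mean of at least 100 counts, by Pearson r of log2 CPM over the 24 libraries, which share depth and composition effects. For Nedd8 they were Actr1a (0.959), Atpif1 (0.958) and Uba1 (0.957), the last of which encodes the ubiquitin-activating enzyme. For Ube2m they were Rnf157 (0.978), Ppp2r1a (0.978) and Arhgef4 (0.977). For Cul3 they were Dynlt3 (0.951), Selenot (0.949) and Arhgap5 (0.941), and for Cul5 Zfp148 (0.920), Atp13a3 (0.899) and Zfp770 (0.886). Among the members, Cul2 and Cul3 had r = 0.844, Nedd8 and Rbx1 0.741, and Nedd8 and Nae1 -0.592, while Nae1 had 0.750 with Cul5, 0.744 with Cul2, 0.634 with Cul3 and 0.370 with Cul1.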

How the data were processed

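RNA-seq was done on rRNA-depleted total RNA of 24 NAc samples. According to the study's methods, the authors trimmed adapters and aligned read pairs to mm10 with STAR 2.6.1b (version from the submitters' processing notes) and GENCODE M15. The deposited values are raw STAR counts of uniquely mapped pairs per gene, not normalized, and the sense-strand column was used. Pairs in several places or in exons of several genes are not counted. Each of the 24 files was taken to the group its title names.

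Counts were filtered with edgeR 4.0.16 (filterByExpr, minimum count 10), normalized by TMM and tested with the robust quasi-likelihood F test on all genes, with Benjamini-Hochberg adjustment and a threshold of 0.10. The 2 groups compared (12 libraries) entered each fit, and all 24 the interaction. DESeq2 1.42.0 gave size factors and an alternative test. The standard error is the absolute log2 fold change over the square root of F, and 95% intervals use 10 residual degrees of freedom. Single values per library were compared by exact two-sided permutation tests. Depth of 39923666 to 70575745 counts gave at least 1334 counts per member. Counting error was not separated from the spread between mice. Within a group the SD of a member was as low as 1.60% of its mean (Cul1 in MSUS females). Over 60 pairs of libraries within groups, the lowest chi-square per gene was 6.34, so none was a copy of another in its group. Libraries of different groups were not compared in this way. Each library is 1 mouse; litters are not given in the labels, so p-values treat mice as independent. Lengths, GC content and positions came from GENCODE M21 on GRCm38, which holds 52489 of the 52636 gene identifiers, and promoters from RefSeq, read for 9 members (Cul2 was not analysed here). Scripts were tested on simulated counts.

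The members and lists were chosen with earlier results of these data known. All 10 members are named. Of other lists, up to 3 rises and 3 falls past the threshold in females with a mean of at least 100 counts are named, and any gene past it elsewhere. Figures used Python 3.11.15 with matplotlib 3.10.9.

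Results were recomputed with DESeq2, with DESeq2's size factors, without the filter, with at least 10 counts in every library, with unstranded counts, with replicate number as a block, with library set (numbers 1 to 12 against 13 to 24), the unassigned share, the spliced share (from the study's alignment statistics) or the cortical marker score as a covariate, with GC and length offsets (with and without the block), at an adjusted p under 0.05, in 1 fit of all libraries, and without each library in turn. The principal transcript length and the slopes on the unassigned share in males (edgeR, group in the model, all genes) were added after the data were seen. Estrous stage, a term of the study's female model, was left out.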

Additional observations from a re-analysis of the deposited data

Results flagged for a closer look

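Among the 40 sets of 6 libraries (10 genes in 4 groups), 6 held a library far from the other 5 by Dixon's test. Chance alone would flag about 1 of 20 independent sets, which is fewer. The 6 sets are not independent, because some libraries recur in them. Con female 2 was lowest in 3 of them, with 1619 normalized counts of Nae1 (next 1893), 5076 of Cul1 (next 5544) and 4469 of Cul5 (next 5073). MSUS male 6 was highest in 2, with 3400 of Uba3 (next 2973) and 6203 of Cul1 (next 5585). Con male 4 was highest for Nae1, with 2157 (next 2076). The strand opposite to the genes, which entered the comparisons only in the alternative with unstranded counts, was also read: for Uba3 it held 7.30 normalized counts on average in MSUS males against 4.57 in Con males (exact permutation p = 0.00433, adjusted p = 0.0433 over 20 tests of 10 genes and 2 sexes), against 9.60 in Con females and 4.89 in MSUS females, where the order was the reverse. Ube2m in females gave the same p, with 51.0 in MSUS against 74.0 in Con females (adjusted p = 0.0433 in the exact permutation test), lower on both strands.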

How the results depend on the processing

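In females, 4 members passed. The count was 0 with the unassigned share or the spliced share as a covariate, 2 (Nedd8 and Ube2m) with the cortical marker score, and 2 (Nedd8 and Rbx1) with the replicate block and GC and length offsets. It was between 3 and 4 with each library left out. The other alternatives gave 3 or 4, but not always the same members. With GC and length offsets alone, Nedd8 and Rbx1 kept their calls, Ube2m and Nae1 lost theirs, and Cul3 passed. Other pathway genes past the threshold, 17 in the main fit, numbered 0 with the unassigned share and 0 with the spliced share. They numbered 7 with the cortical marker score, 7 with the replicate block and offsets, and 13 to 18 with a library left out. These counts can include genes that were not among the 17. In Con animals, the 2 pathway genes that differed between the sexes were 7 with DESeq2 and with unstranded counts, 1 with library set, 0 with no filter, the replicate block, each of the 3 covariates, the offsets with and without the block, the fit of all libraries and an adjusted p under 0.05, and 0 to 6 with a library left out (6 without Con male 5). In the interaction, leaving out a library gave 0 to 4 members and 0 to 8 other genes, above 0 only without MSUS male 1. The member counts of the other comparisons were 0 under every alternative. All 24 libraries in one fit gave 4 members in females. The 3 members that fell with the unassigned share in males were 8 with GC and length offsets, where the slope of Nae1 turned to -0.0131, and 2 to 4 with a library left out.

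Nedd8, Ube2m, Rbx1, Nae1 and Ube2f kept their direction in females under every alternative, Nedd8 from -0.20 to -0.17, Ube2m from -0.23 to -0.19, Rbx1 from -0.12 to -0.08 and Nae1 from 0.14 to 0.21 with a library left out. Signs of small values turned as follows, and the cause was not tested. Uba3 was 0.105 with the unassigned share, 0.0482 with the cortical score and -0.0408 to 0.0338 with a library left out. Cul1 was -0.0184 unstranded, -0.000274 with spliced share, -0.00113 with the cortical score, -0.0362 with the offsets, -0.036 with the offsets and the block, and -0.0169 to 0.0182 with a library left out. With the offsets alone and with the block, Cul2 was -0.0524 and -0.0523, Cul3 -0.138 in both, and Cul5 -0.0903 and -0.0902. In males, Ube2m was -4.06e-05 with spliced share and -0.0102 to 0.0933 with a library left out, Rbx1 -0.00474 to 0.0596, and Nae1 -0.0265 to 0.0277. Nae1 was 0.000567 with DESeq2 size factors, 0.000218 unstranded, 0.00906 with the unassigned share, 0.013 with spliced share, and 0.000133 and 0.000686 with the offsets without and with the block. Between the sexes in Con animals, Nedd8 was -0.0121 with the unassigned and -0.0447 with the spliced share, Ube2m -0.0284 with the spliced share, Rbx1 -0.00674 with the unassigned share, and Nae1 0.0149 and 0.0151 with the offsets without and with the block.

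Same-numbered libraries deviated together at over 0.1 in 10 of 24 pairs (correlations of -0.372 to 0.398), and 4 of 24 libraries were closest to their own number. Replicate numbers 2 and 4 gave positive correlations in every pair of groups, and numbers 1, 3, 5 and 6 gave both signs. Whether mice of the same number shared a litter or handling was not tested. With the replicate block alone, 3 members passed in females (Nedd8, Ube2m and Nae1), and 3800 genes in place of 5156. Over all genes in females, no filter gave 3667 calls, GC and length offsets 3358, offsets with the block 1717, the cortical score 1470, library set 5170, and the unassigned and the spliced share 0.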
